A study of Mus musculus with 14 samples.

Results

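The question was whether transcript levels rise or fall stepwise with the number of skeletal lineages that a bone marrow stromal clone can form. All 14 of the 14 libraries of the series entered, each placed by the differentiation potential in its label. Libraries with 1 lineage numbered 6 (osteogenic O1 to O3 and adipogenic A1 to A3). Libraries with 2 lineages numbered 5 (osteo-adipogenic OA1 to OA3, osteo-chondrogenic OC3 and adipo-chondrogenic AC3). The 3 libraries OAC1 to OAC3 were tripotent. The number of lineages was used as a numeric term, so a slope is the change in log2 level for each lineage gained.

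Bone marrow stromal cells include skeletal progenitors that can give rise to osteoblasts, marrow adipocytes and chondrocytes, and clones isolated from one marrow differ in how many of these fates they can take. Fate choice is governed by lineage transcription factors, among them Runx2 and Sp7 for bone, Pparg and Cebpa for fat and Sox9 for cartilage. Progenitors of higher potency are often discussed in terms of surface markers, niche factors and proliferation genes, and lists of these were therefore examined along the series.

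The cells came from adult C57Bl/6 mice carrying the irtTA-GBD*-TAg transgene, and every library shares this background. Large T antigen was induced with dexamethasone and doxycycline during expansion, clones were scored for osteogenic, adipogenic and chondrogenic differentiation after the inducers were withdrawn, and RNA was taken after 3 days without them. Number 1 or 2 in a label marks a single clone, each of the pair from another mouse, and number 3 marks a pool of further clones from both animals. OC3 and AC3 are therefore pools with no replicate, and p-values rest on how far the clones and pools of a level spread. The pools are O3 and A3 among unipotent, OA3, OC3 and AC3 among bipotent and OAC3 among tripotent libraries. Pools and single clones are thus not balanced over the levels, and the main model had no term for them. Chondrogenic potential occurs in 0 of 6 unipotent, 2 of 5 bipotent and 3 of 3 tripotent libraries, so a gene tied to that fate cannot be fully told apart from one tied to the number of fates.

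Total counts ran from 16888190 to 26076539 per library. OA2 and O1 stood apart: 11806 and 12445 genes reached 1 CPM (read counts scaled to TMM-adjusted library size) against 12533 to 13134 in the other 12 libraries. For each gene, the deviation of its log2 level from its mean over the 14 libraries was compared with its GC content. The rank correlation across genes ran from -0.53 in OAC3 to 0.65 in OA2. The slopes themselves had a rank correlation with GC content of 0.02 over 13409 genes. Of the listed osteogenic, adipogenic and cartilage genes, 28 of 30, 23 of 29 and 14 of 25 reached 1 CPM in 3 or more libraries. These were detected in all 3 levels, while markers of other cell types were uneven. Ptprc, the pan-leukocyte marker, had at most 1 read in any library, and the endothelial genes Cdh5 and Cldn5 had at most 3 and 1. Other markers were detected, with up to 2961 reads of Cd74 (O1), 608 of the endothelial Flt1 (O3), 1894 of the neuronal Tubb3 (OA3) and 584 of the muscle progenitor gene Pax3 (OAC1).

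No gene passed a false discovery rate (FDR) of 0.05 for the trend in edgeR's quasi-likelihood test, in either direction, among 13896 tested genes. The lowest FDR was 0.456, for Gna15. At an unadjusted p under 0.05 there were 513 genes, 3.69% of those tested, of which 175 (1.26%) had a positive and 338 (2.43%) a negative slope. DESeq2, run on the same counts, called 6 genes higher (0.0432%) and 3 lower (0.0216%) with increasing number of lineages. The median slope was -0.02 with a median standard error of 0.18, and the central 95% of slopes lay between -0.66 and 0.43. Of the 513 genes, 149 had level means that increased and 285 level means that decreased at both steps. Among all tested genes 18.1% were ordered upward and 20.9% downward. The 513 genes were picked for a low trend p, which favours ordered means, so their share cannot be read as a result.

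The gene nearest to a stepwise pattern was Gna15, which encodes an alpha subunit of the Gq family of heterotrimeric G proteins. It had 1.34, 1.69 and 2.61 CPM in the osteogenic libraries O2, O3 and O1 and 0.822, 1.66 and 3.55 CPM in A1, A2 and A3. The bipotent libraries OA1, OA2, OA3, OC3 and AC3 had 0.4, 0.321, 0.717, 0.454 and 0.317 CPM, and the tripotent OAC1, OAC2 and OAC3 had 0.309, 0.314 and 0.197 CPM. Levels did not overlap at either step, although the second step was narrow, with AC3 and OAC2 nearly equal. The counts behind these levels were small, 20 to 93 reads in unipotent, 6 to 16 in bipotent and 5 to 7 in tripotent libraries. All bipotent and tripotent libraries lay under 1 CPM, so Gna15 passed the count filter only through the unipotent libraries. Its separation from them is therefore not independent of that filter. Its slope was -1.51 ± 0.26 (SE) per lineage (unadjusted p = 3.28e-05 by edgeR). DESeq2 called it lower (adjusted p = 0.00352) and kept the call when any 1 of the 14 libraries was left out.

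Fbf1, a component of the transition fibres at the base of cilia, was the only other gene with no overlap at either step (2 genes, 0.0144% of those tested, both lower; no gene was separated at both steps in the upward direction). Its mean level was 80.1 ± 4 CPM (SD, n = 6) in unipotent, 69.3 ± 1.96 CPM (n = 5) in bipotent and 57.1 ± 7.22 CPM (n = 3) in tripotent libraries. The unipotent libraries spanned 73.7 to 86 CPM, the bipotent 67.8 to 72.7 CPM and the tripotent 51 to 65.1 CPM. The slope of Fbf1 was -0.24 ± 0.06, small in size and even across both steps (-0.21 and -0.28). DESeq2 called it (adjusted p = 0.00485), and lost the call when OAC2 (adjusted p = 0.0877) or OAC3 (0.103) was left out.

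**Figure D1:**
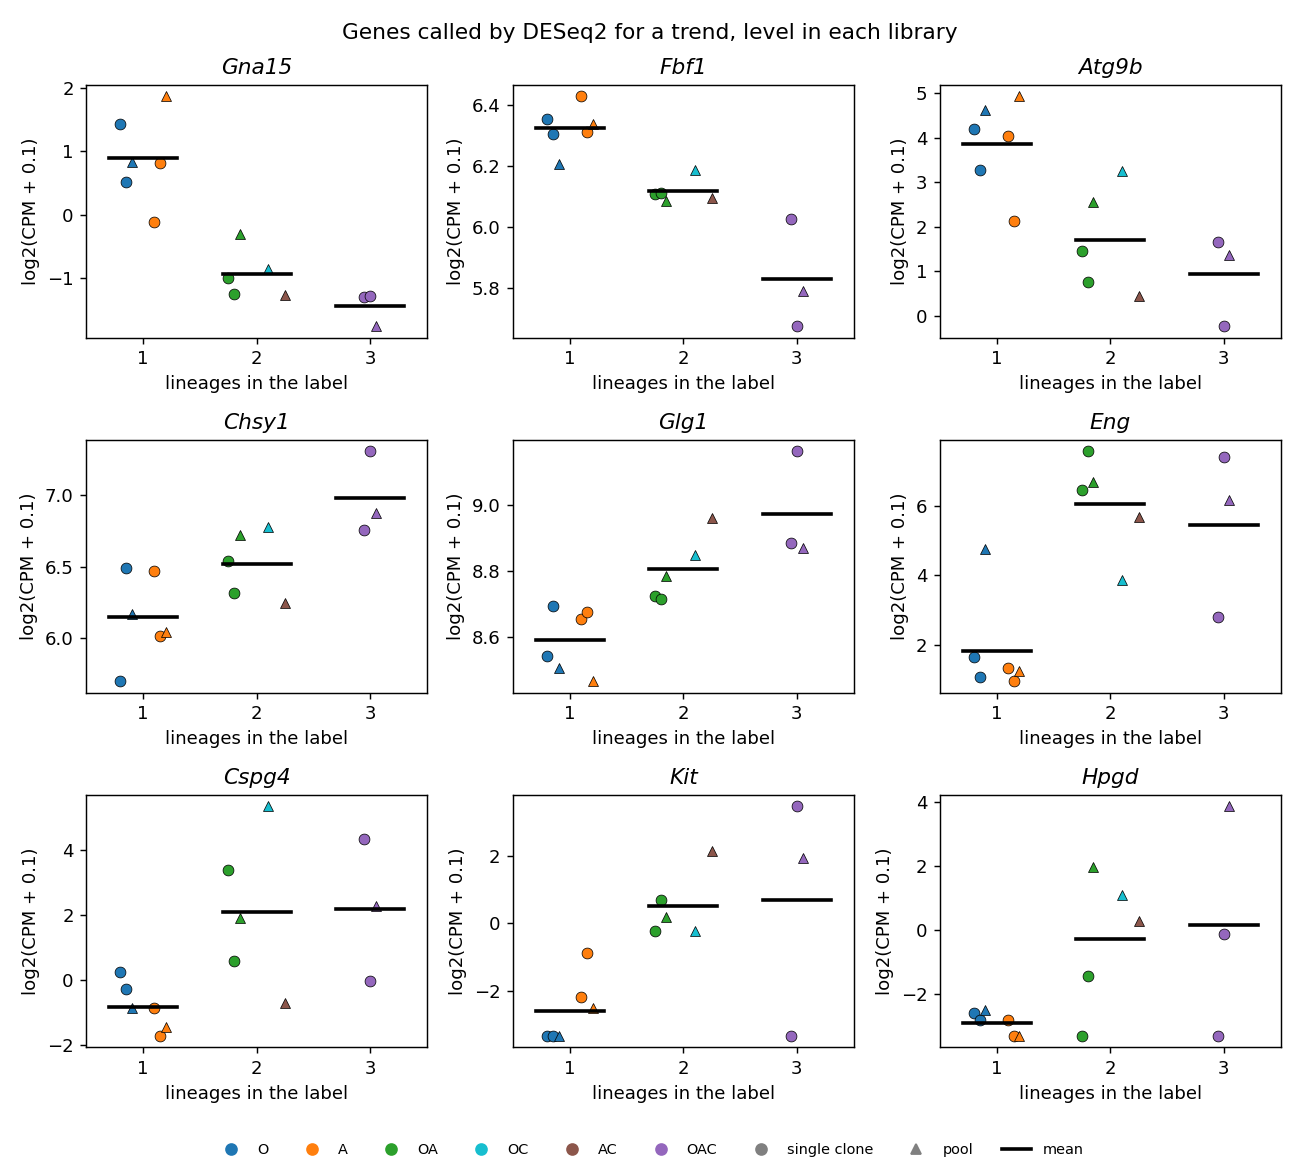
Level in CPM (log scale) of the genes that DESeq2 called for the trend, against the number of lineages in the label. None of them passed the FDR in edgeR. Each point is 1 library, coloured by group, with circles for single clones and triangles for pools. Gna15 lies between 0.822 and 3.55 CPM in unipotent and between 0.197 and 0.314 CPM in tripotent libraries.

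Besides Gna15 and Fbf1, DESeq2 called 7 genes, which were picked out after their values were seen. Atg9b, a lipid scramblase of autophagosome formation, had a median of 17.2 CPM in unipotent libraries (4.29 to 30.3), 2.65 CPM in bipotent (1.27 to 9.35) and 2.49 CPM in tripotent (0.754 to 3.04). Unipotent and tripotent libraries did not overlap, and the bipotent ones overlapped with both. The edgeR slope was -1.57 ± 0.35, and the DESeq2 call (adjusted p = 0.0133) was kept in 8 of 14 leave-one-out fits and lost without OAC2, OAC3, O1, O3, A1 or A3 (0.0537 to 0.175).

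Hpgd, Kit, Cspg4 and Eng were called higher by DESeq2, and all of them had low levels in most unipotent libraries. Hpgd and Kit had at most 0.0749 and 0.445 CPM there, so they passed the filter of 1 CPM only through bipotent and tripotent libraries. Hpgd, the enzyme that inactivates prostaglandins, had 0 to 2 reads in each of the 6 unipotent libraries. It had 0, 5, 85, 53 and 28 reads in OA1, OA2, OA3, OC3 and AC3 and 0, 13 and 364 in OAC1, OAC2 and OAC3. The tripotent clone OAC1 thus had no Hpgd reads while the tripotent pool had the most of any library. The call (adjusted p = 0.0133) was lost without OAC3 (0.132), A1 (0.0557) or A3 (0.0521).

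Kit, the receptor for stem cell factor, had 0 reads in all 3 osteogenic libraries and 3, 11 and 2 reads in A1, A2 and A3. Reads numbered 15, 28, 23, 20 and 108 in OA1, OA2, OA3, OC3 and AC3, and 0, 173 and 94 in OAC1, OAC2 and OAC3. Bipotent libraries were all above the unipotent ones, whereas OAC1 again had none. DESeq2's call (adjusted p = 0.0491) held in 3 of 14 leave-one-out fits, those without OAC1, O2 or A2, and the adjusted p reached 0.719 without OAC2.

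Cspg4, the NG2 proteoglycan of pericytes, stayed at 1.08 CPM or below in the unipotent libraries. It reached 10.4, 1.39, 3.67, 41.2 and 0.515 CPM in OA1, OA2, OA3, OC3 and AC3 and 20.4, 0.879 and 4.77 CPM in OAC1, OAC2 and OAC3. AC3 and OAC2 lay within the unipotent range. In a model with 1 term per lineage the osteogenic term of Cspg4 was 3.78 ± 1.23, the adipogenic 0.37 ± 1.12 and the chondrogenic 2.36 ± 1.00. The DESeq2 trend call (adjusted p = 0.0161) was kept in 10 of 14 leave-one-out fits and was lost on leaving out O3 (0.116), A1 (0.0869), A2 (0.126) or A3 (0.153).

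Eng encodes endoglin (CD105), a co-receptor for TGF-beta ligands used as a stromal surface marker. It had 1.82 to 2.99 CPM in 5 unipotent libraries and 27.1 CPM in the pool O3. Bipotent libraries spanned 14.5 (OC3) to 193 CPM (OA2), and OAC1, OAC2 and OAC3 had 6.79, 170 and 72.6 CPM. The step from 1 to 2 lineages was 3.80 and the step from 2 to 3 was -0.11, so the difference lay at the first step. DESeq2's call (adjusted p = 0.0229) held in 7 of 14 leave-one-out fits and was lost without OAC2, OA3, O1, O2, A1, A2 or A3 (0.0552 to 0.166).

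The other genes called by DESeq2 had small slopes. Chsy1, a chondroitin sulfate synthase, had means of 72.1 ± 14.8, 92.8 ± 15.2 and 128 ± 26.8 CPM (SD, n = 6, 5 and 3) in unipotent, bipotent and tripotent libraries, with a slope of 0.41 ± 0.10. Glg1, a Golgi sialoglycoprotein that binds fibroblast growth factors, had means of 386 ± 25.8, 448 ± 32.1 and 504 ± 59.5 CPM, with a slope of 0.20 ± 0.06. Unipotent and tripotent libraries did not overlap for either gene. DESeq2's adjusted p was 0.0345 for Chsy1 and 0.0491 for Glg1, and the calls held in 5 (without OAC1, OA2, O2, A1 or AC3) and 3 (without OAC1, O2 or AC3) of 14 leave-one-out fits. Leaving out OAC2 gave 0.719 for both.

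Since no gene passed the FDR in edgeR, genes were named by the lowest trend p among those with at least 5 CPM, ordered level means and a slope of 1 sign in all 14 leave-one-out fits. The 12 with positive slopes ranged from 0.28 to 0.80 per lineage. They were Chsy1, the cholesterol synthesis enzyme Hsd17b7, the membrane-anchored metalloproteinase Mmp17, Mtss1l, the tetraspanin Cd9, Plekhg5, the collagen VI chain Col6a3, Zcchc14, Ldlrad3, the formin Fhod1, Ppfibp2 and the zinc finger factor Klf13. For 10 of these 12 the unipotent and tripotent libraries did not overlap, the exceptions being Cd9 and Ppfibp2, against 0.597% of all tested genes in this direction. The share cannot be read as a result, because the genes were picked for low trend p.

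Hsd17b7 had a unipotent median of 37.9 CPM (17.6 to 47.4), a bipotent median of 46.6 CPM (38.5 to 56.4) and 71.5, 105 and 52.9 CPM in OAC1, OAC2 and OAC3. The slope was 0.52 ± 0.13 (unadjusted p = 0.000977 by edgeR), and O1 was the lowest library by far. Col6a3 had a unipotent median of 1674 CPM (1101 to 2596), a bipotent median of 2878 CPM (2366 to 6093) and 3708, 4079 and 3888 CPM in the tripotent libraries. Here the first step was 1.06 and the second 0.10, with the tripotent libraries above the bipotent median and inside the bipotent range. Klf13 had steps of 0.85 and 0.02, and Cd9 had 0.22 and then 0.42. Of the 12 genes with positive slopes, 0 departed from a straight line at an unadjusted p under 0.05 in edgeR. A difference between the 2 steps was therefore not shown for any of them.

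The 12 genes with negative slopes ranged from -1.57 to -0.24. Besides Atg9b and Fbf1 they were the centrosomal Lrrc45, the galactosyltransferase Ggta1, the scramblase family member Plscr2, the platelet integrin chain Itga2b, the DNA glycosylase Mpg, the lipid transfer protein Pitpnc1, Sap30bp, the basement membrane collagen Col4a6, the carbonyl reductase Cbr3 and the carboxylesterase Ces2e. For 8 of the 12 the unipotent and tripotent libraries did not overlap, against 1.09% of tested genes in this direction. This share cannot be read as a result either, because these genes were also picked for low trend p. Col4a6 had a unipotent median of 11.2 CPM (4.23 to 24.4), a bipotent median of 3.11 CPM (0.551 to 9.16) and 0.749, 1.82 and 3.12 CPM in OAC1, OAC2 and OAC3. Itga2b had a unipotent median of 11.4 CPM (8.1 to 19.8), a bipotent median of 7.53 CPM (3.96 to 9.92) and 6.08, 5.78 and 5.6 CPM in the tripotent libraries. Levels of Itga2b in the tripotent libraries were close to each other and inside the bipotent range.

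The order of nested potentials was stricter: a group mean had to lie beyond those of the groups whose lineages it contains (OA beyond O and A, OC beyond O, AC beyond A, and OAC beyond OA, OC and AC). This rule was added after the data were seen. Upward order was met by 88 genes (0.633%) and downward order by 117 (0.842%). Among the named genes Chsy1, Hsd17b7, Mmp17, Mtss1l, Ppfibp2, Glg1 and the osteocyte matrix gene Dmp1 were ordered upward. Gna15, Fbf1, Lrrc45, Ggta1, Plscr2, Pitpnc1, Bmp8a and the myelin gene Mbp were ordered downward.

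The steps were also tested singly. From 1 to 2 lineages 0 genes passed the FDR in edgeR and 5 (0.036%) in DESeq2, and 431 (3.1%) were under an unadjusted p of 0.05 in edgeR, 159 (1.14%) of them higher and 272 (1.96%) lower with 2 lineages. Libraries of these levels did not overlap for 42 genes (0.302%). From 2 to 3 lineages 0 passed with either tool, and 109 (0.784%) were under the unadjusted p in edgeR, 57 (0.41%) higher and 52 (0.374%) lower with 3 lineages. Bipotent and tripotent libraries did not overlap for 124 genes (0.892%). No gene had an unadjusted p under 0.05 at both steps with 1 sign. Departure from a straight line was met by 0 genes at the FDR in edgeR, by 181 (1.3%) at the unadjusted p and by 0 in DESeq2. Bipotent libraries lay below the midpoint of the other levels for 84 of the 181 (0.604% of tested genes) and above it for 97 (0.698%).

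The genes with the lowest p for departure from a line had their highest or lowest level in the bipotent libraries. Atp9a, a phospholipid flippase, had 0.509 to 3.63 CPM in unipotent libraries, 25.1, 46.6, 10.9, 5.98 and 5.39 CPM in OA1, OA2, OA3, OC3 and AC3, and 1.72, 1.07 and 8.68 CPM in OAC1, OAC2 and OAC3. H19, the imprinted noncoding RNA, had 0 to 2.39 CPM in unipotent, 5.66 to 66.2 CPM in bipotent and 1 to 5.16 CPM in tripotent libraries. Tmem119, a membrane protein of osteoblasts, and Mdga1 had steps of 1.07 and 1.36 followed by -0.69 and -0.81. Trp63, a p53 family transcription factor, had the opposite course, -1.46 and then 1.68. Unadjusted p-values for these 5 genes lay between 0.00083 and 0.0077 by edgeR, and none passed the FDR.

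The lineage transcription factors and markers had slopes near 0 with wide errors. For bone, the slopes were 0.12 ± 0.22 for Runx2, 0.08 ± 0.95 for Sp7, 0.32 ± 0.61 for the alkaline phosphatase gene Alpl and -0.15 ± 0.60 for the osteocalcin gene Bglap. For fat, they were 0.08 ± 0.33 for Pparg, 0.16 ± 0.33 for Cebpa, -0.02 ± 0.32 for the fatty acid binding protein Fabp4 and 0.37 ± 0.79 for the lipoprotein lipase Lpl. Sox9 and the cartilage collagen Col2a1 had -0.02 ± 0.23 and -0.01 ± 0.44, and the cartilage proteoglycan Acan did not pass the filter on low counts.

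The levels of these genes differed widely inside each number of lineages. Sp7, the zinc finger factor needed for osteoblast formation, had 22.3 CPM in O1, 397 CPM in O2 and 54.3 CPM in O3 but only 0.616, 0.486 and 1.03 CPM in the adipogenic libraries. Among bipotent libraries it had 216, 13.4, 192 and 191 CPM in OA1, OA2, OA3 and OC3 and 0.872 CPM in AC3. The tripotent libraries had 5.2, 114 and 109 CPM. Every library with O in its label was above every library without it.

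To separate the fates, the trend was split into an osteogenic, an adipogenic and a chondrogenic term, which equals the trend where the 3 terms are equal. At an unadjusted p under 0.05 in edgeR there were 1090 genes (7.84%) for the osteogenic, 1341 (9.65%) for the adipogenic and 711 (5.12%) for the chondrogenic term, and 0 passed the FDR for each. The osteogenic term was positive for 603 (4.34%) and negative for 487 (3.5%), the adipogenic for 846 (6.09%) and 495 (3.56%), and the chondrogenic for 244 (1.76%) and 467 (3.36%). DESeq2 called 177 (1.27%), 202 (1.45%) and 3 (0.0216%). The test for unequal terms was met by 2 genes at the FDR in edgeR (0.0144%) and by 1671 (12%) at the unadjusted p, and DESeq2 called 554 (3.99%). Of the 513 genes with a trend p under 0.05, 55 also had an unadjusted p under 0.05 for unequal terms.

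**Figure D2:**
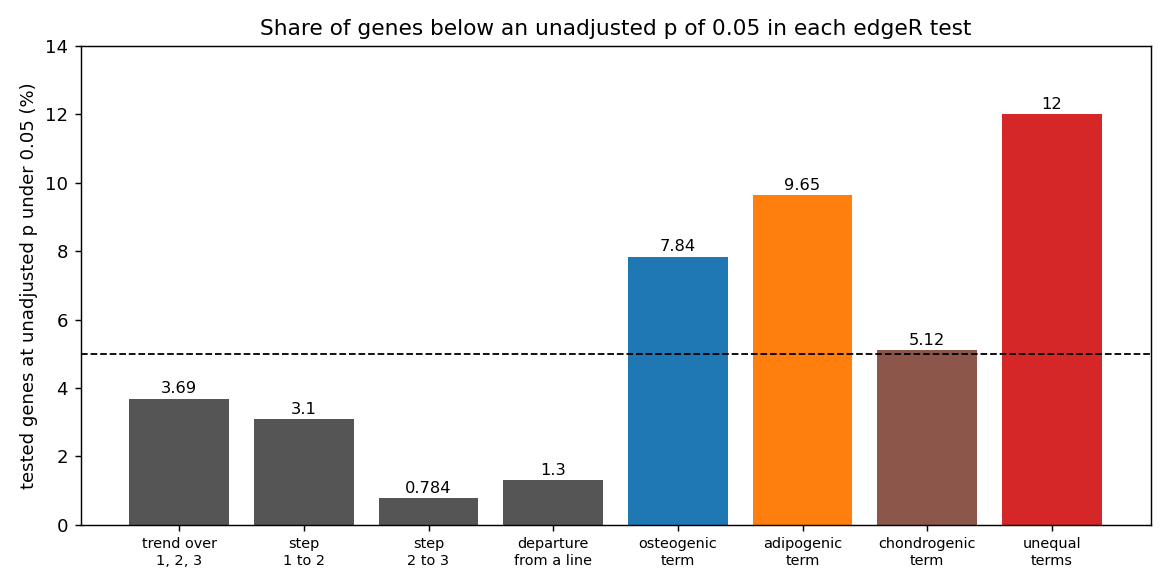
Percent of the 13896 tested genes with an unadjusted p under 0.05 in each edgeR test, with a dashed line at 5%, the share expected if no gene differed. The trend, the single steps and the departure from a line lie between 0.784% and 3.69%, the osteogenic, adipogenic and chondrogenic terms between 5.12% and 9.65%, and the test of unequal terms at 12%.

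Igdcc4 and Cldn15 were the genes past the FDR for unequal terms (edgeR FDR 0.0440 each). Igdcc4, an immunoglobulin superfamily receptor, had 116 CPM in O1, 42.5 in O2, 59.6 in O3 and 60 in OC3, as opposed to 4.77 CPM in A1, 4.82 in A2, 11.4 in A3 and 7.65 in AC3. The libraries with both fates lay between these, at 23.6, 26 and 30.4 CPM in OA1, OA2 and OA3 and 18.7, 28.6 and 16.8 CPM in OAC1, OAC2 and OAC3. Its osteogenic term was 1.78 ± 0.35 and its adipogenic term -1.49 ± 0.32. Its slope over the number of lineages was -0.45 ± 0.43.

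Cldn15, a tight junction claudin, had the opposite arrangement, with 0.127 to 0.284 CPM in O1 to O3 and 0.227 CPM in OC3, 13.6, 3 and 4.57 CPM in A1, A2 and A3, and 4.68 CPM in AC3. OA1, OA2 and OA3 had 1.4, 2.25 and 1.39 CPM and OAC1, OAC2 and OAC3 had 2.25, 2.07 and 1.7 CPM. The osteogenic term was -1.80 ± 0.44 and the adipogenic 2.98 ± 0.50. Leaving out each library in turn gave 0 to 3 genes past the FDR for unequal terms, with 0 on leaving out OAC3, OA1, OA2, OA3, O1, O2, A3 or OC3, and 0 on leaving out OA2 and O1 together.

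Other genes with low p for unequal terms were the stromal chemokine Cxcl12 (adipogenic term 2.19 ± 0.40, osteogenic -0.81 ± 0.37) and the matrix proteoglycan Fmod (osteogenic 3.30 ± 0.50). Pde4d, a cyclic AMP phosphodiesterase, had an osteogenic term of -0.84 ± 0.20, an adipogenic of 0.68 ± 0.21 and a chondrogenic of 0.69 ± 0.18. Ms4a4d, a member of the four-pass MS4A family, had an adipogenic term of 5.40 ± 0.97 and an osteogenic term of -2.74 ± 0.72. These 4 genes had an FDR of 0.0651 for unequal terms in edgeR and so did not pass. Sp7 had an osteogenic term of 7.19 ± 1.32, Alpl of 3.73 ± 0.93, and Pparg and Cebpa adipogenic terms of 1.65 ± 0.48 and 1.68 ± 0.46. Lpl combined an adipogenic term of 3.57 ± 0.84 with an osteogenic term of -1.98 ± 0.69.

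**Figure D3:**
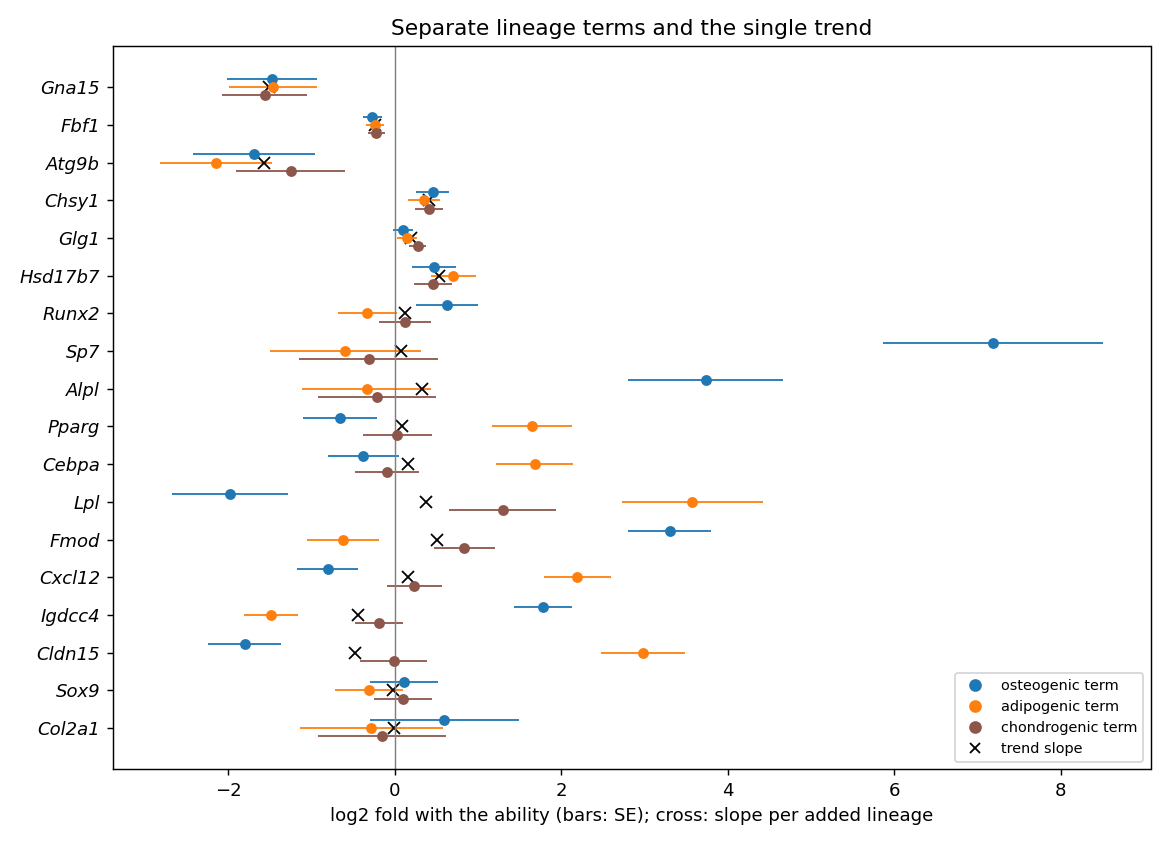
Osteogenic, adipogenic and chondrogenic terms (log2 change where that fate is in the label, with standard errors) beside the slope over the number of lineages for named genes. Igdcc4 and Cldn15 have osteogenic and adipogenic terms of opposite sign and slopes of -0.45 and -0.48.

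Across 26 gene lists, 0 of the 407 tested members passed the FDR for the trend in edgeR, and the 9 DESeq2 calls included Eng and Cspg4 of the stromal surface markers. Among all tested genes 43.7% of slopes were positive. The stromal surface list (16 tested members) had a median slope of -0.01 (0.09 without OAC2) with 6 positive. Its members lay far apart, from -2.45 ± 1.29 for Pdpn and -2.01 ± 0.81 for Cd34 to 2.34 ± 0.82 for Eng and 2.68 ± 1.00 for Cspg4. For Pdpn and Cd34 the adipogenic terms were -5.41 and -4.16, against osteogenic 1.18 and 0.35 and chondrogenic -1.39 and -0.59. The unadjusted p for unequal terms in edgeR was 0.00144 for Pdpn, 0.00128 for Cd34, 0.0337 for Cspg4 and 0.207 for Eng. Of the tested entries for marrow stromal niche genes, which include the factors that support blood stem cells, 14 of 20 had positive slopes. Their median was 0.17 (0.08 without O1). Ebf1 had more than 1 entry, with slopes of 0.12 and 0.15, and the listed Il7 was not among those tested. Pdgfrb had the lowest p of the niche list, with a slope of 0.36 ± 0.17. Its means were 446 ± 142, 665 ± 285 and 701 ± 121 CPM (SD, n = 6, 5 and 3) at 1, 2 and 3 lineages. The terms of Pdgfrb were unequal, 1.01 adipogenic, 0.11 osteogenic and 0.18 chondrogenic (unadjusted p = 0.0101 by edgeR).

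The extracellular matrix list had 19 of 24 positive slopes and a median of 0.20, which stayed between 0.14 and 0.30 when any 1 library was left out. Col6a3 was the member with an unadjusted p under 0.05. Fn1 had a slope of 0.32 ± 0.17 and Tnc of 0.42 ± 0.35, whereas Thbs2 had -0.42 ± 0.20 and Postn -0.52 ± 0.68. Summed levels of the list were 50900 to 129000 CPM in unipotent, 95600 to 153000 CPM in bipotent and 86900 to 127000 CPM in tripotent libraries, so the levels overlapped. Secreted Wnt antagonists had 6 of 7 positive slopes and a median of 0.22, which was 0.01 without OAC1. Among Notch genes the ligand Jag2 and the receptor Notch4 had slopes of -0.72 ± 0.32 and -0.91 ± 0.39 and the modulating glycosyltransferase Lfng 0.43 ± 0.17, with a list median of 0.08 (0.03 without O2).

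Factors associated with stem cells had mostly negative slopes, 16 of 20, with a median of -0.14 (-0.07 without OAC1). The RNA-binding proteins Igf2bp2 and Igf2bp3 had -0.54 ± 0.25 and -0.67 ± 0.56 and the chromatin protein Hmga2 -0.48 ± 0.35, while Myc and Klf4 had 0.06 ± 0.19 and 0.08 ± 0.26. Among p53 targets and cell-cycle inhibitors 4 of 20 slopes were positive and the median was -0.18, with -0.53 ± 0.25 for Mdm2, the ubiquitin ligase of p53, and -0.30 ± 0.14 for Cdkn2a. Without O1 that median was -0.05. The 33 genes of DNA replication and mitosis had a median of 0.08, with 0.23 without O2 and -0.05 without O1, whose summed level of 758 CPM was the lowest of all libraries (4030 CPM at most).

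The interferon response list had 3 of 29 positive slopes and a median of -0.37. Its lowest p belonged to Oas3 and Mx1, antiviral effectors with slopes of -1.41 ± 0.56 and -1.63 ± 0.65. Mx1 had 389 reads in A2 and 1 to 44 in the other libraries. Without A2 the median slope of the list was 0.13, so 1 library set its sign. Unequal lineage terms at an unadjusted p under 0.05 were found for 18 of the 29 genes (62.1%, against 12% of all tested genes), with median terms of -1.05 osteogenic and 1.20 adipogenic.

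The osteoblast list had a similar contrast between its trend and its terms. Its median slope was 0.10 (0.73 without O2, -0.03 without A2), whereas 19 of 28 members (67.9%) had an unadjusted p under 0.05 for unequal terms and the median osteogenic term was 1.86. Dmp1 had the lowest trend p of the list, with a slope of 1.25 ± 0.36 and reads of 56, 280 and 60 in OAC1, OAC2 and OAC3 against 4 to 76 in unipotent libraries. In the adipocyte list the median slope was 0.08 (-0.08 without OAC2), and Gpd1, the glycerol-phosphate dehydrogenase, had 0.59 ± 0.19. The cartilage list had a median of -0.03 over 14 tested members (-0.13 without O1, 0.26 without O2).

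Blood cell markers had a median slope of -0.47 over 6 tested members. Cd14, a receptor for bacterial lipopolysaccharide, had a slope of -0.92 ± 0.23 (unadjusted p = 0.00107 by edgeR), with 3.68 to 16.3 CPM in unipotent, 1.78 to 4.71 CPM in bipotent and 1.76 to 2.47 CPM in tripotent libraries. The list summed to 254 CPM in O1, mostly from Cd74 (2961 reads) and Lyz2 (585 reads), and its median was -0.10 without O1 and -0.92 without OAC1. Ptprc, Itgam and Elane had at most 2 reads in any library. The tested endothelial markers (4 of 12 listed) summed to 10.1 to 36.5 CPM, and the tested Schwann and neural markers (4 of 12) to 8.71 to 96.1 CPM. Of the skeletal muscle markers only Pax3 was tested (1 of 14), with at most 25.7 CPM. The part of these markers in the slopes was not tested.

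**Figure D4:**
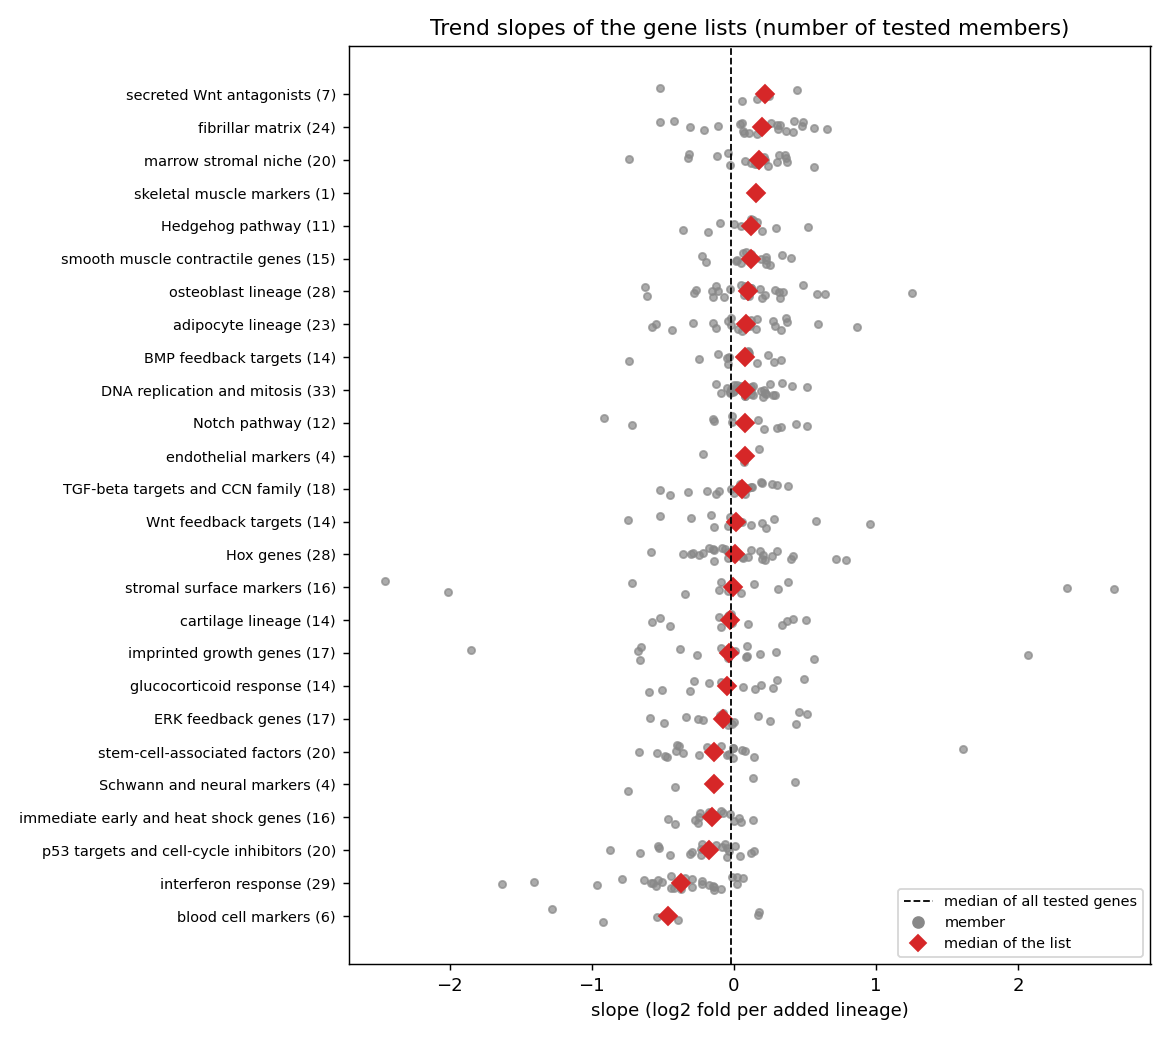
Slopes over the number of lineages (log2 per lineage) for the tested members of each gene list, with the list median marked. List medians run from -0.47 for blood cell markers to 0.22 for secreted Wnt antagonists (0.01 without OAC1), and the median over all tested genes is -0.02.

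No relation between the breadth of the transcriptome and the number of lineages was detected over all 14 libraries. Genes at 1 CPM or more numbered 12445 to 13114 in unipotent, 11806 to 13134 in bipotent and 12533 to 12910 in tripotent libraries. Across the 14 libraries Pearson's r with the number of lineages was -0.198 (permutation p = 0.53, adjusted over 4 measures 0.53) and Spearman's rho -0.394 (permutation p = 0.162, adjusted 0.339). Leaving out O1 and OAC2 gave r = -0.222. All unipotent and tripotent libraries are equally far from the median number of lineages, so these 2 were chosen among them by their distance in gene number. Without OA2 and O1, the libraries with the fewest genes, r was -0.609. No p is given for that value, because the libraries left out were those lowest in the measure itself. Within the 8 single clones r was -0.223 and within the 6 pools -0.584 (exact permutation p = 0.641 and 0.233). Shannon entropy of the counts had r = -0.22 and the share of counts in the 100 most abundant genes r = 0.29 (permutation p = 0.448 and 0.314, both adjusted 0.53). Total counts had r = -0.209 (permutation p = 0.473, adjusted 0.53).

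**Figure D5:**
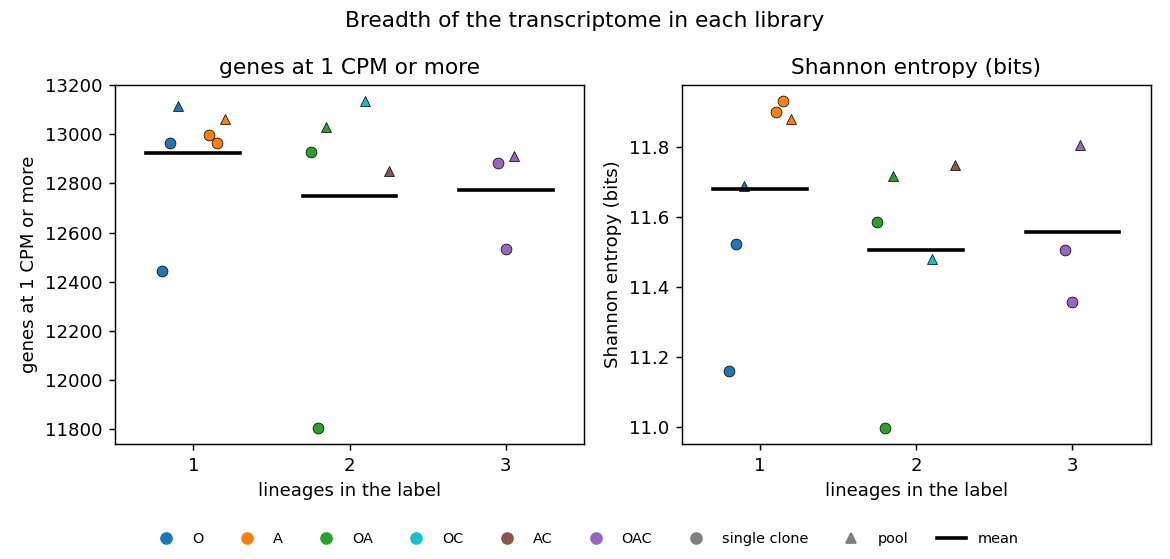
Genes at 1 CPM or more and Shannon entropy (bits) of each library against the number of lineages in the label, with the mean of each level as a bar, circles for single clones and triangles for pools. OA2 with 11806 genes and O1 with 12445 lie below the other 12 libraries.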

How the data were processed

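RNA-seq read counts per gene were deposited by the authors as 1 table of 14 libraries and 23331 genes. Per the submitters' processing notes, CASAVA 1.8.0, bedtools 2.11 and the mouse build mm9 were used. Aligner, read filters and whether counting used strand: not given in the sources used here. Counts of genes that overlap or have near-identical copies are thus uncertain, and 196 genes share a symbol with another. No coordinates are given, since the annotation used for GC content follows another build.

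Genes that reached 1 CPM, without TMM adjustment, in 3 or more libraries were tested (13896). The test was edgeR 4.0.16 (R 4.3.3; TMM, robust quasi-likelihood) with the number of lineages as a numeric term (12 residual degrees of freedom). Levels 1, 2 and 3 (11) and 3 lineage terms (10) were fitted likewise. Standard errors were derived from the slope and its F value. P-values were adjusted over all tested genes by the Benjamini-Hochberg method, with a threshold of 0.05. DESeq2 1.42.0 was the second tool and gave no adjusted p for 58 genes in the trend. Both were tested on simulated counts, where unchanged genes made up a larger share of DESeq2's calls than of edgeR's. Correlations over libraries used permutation tests with 100000 resamples, or exact ones, in scipy 1.17.1.

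Named genes were, up to 12 per direction, those with the lowest trend p, at least 5 CPM, ordered level means and a slope of 1 sign in every leave-one-out fit. Added to these were the genes without overlap at either step with at least 1 CPM, 11 lineage genes, the 3 members of each list with the lowest p, and the 5 genes with the lowest p for curvature and for unequal terms. Mitochondrial, predicted and unnamed genes were skipped. The genes called by DESeq2 and Cldn15 were added after their values were seen. The lists and rules were chosen with earlier results of these data known. Alternatives were DESeq2, limma 3.58.1, other scaling, no count filter, a GC offset, a replicate block, pools or clones alone, and leaving out libraries. Not every gene named by these rules is described in the text.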

Additional observations from a re-analysis of the deposited data

Results flagged for a closer look

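In 28 of 248 groups of 5 or 6 libraries (11.3%), the highest or lowest library stood apart from the others in level on the log2 scale, where chance flags about 1 in 20. Of these, 10 were in O1 and 5 in OA2.

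O1 had 12445 genes at 1 CPM and a total count of 17846135, both the lowest among unipotent libraries. It was the lowest unipotent library for Hsd17b7 (17.6 CPM), Zcchc14 (88.9 CPM), the mitotic genes Plk1 (3.56 CPM) and Ube2c (2.61 CPM), Spry1 (6.61 CPM) and Kdr (0.318 CPM), and the highest for Cbr3 (44.3 CPM) and the adipogenic factor Cebpd (59.1 CPM). Other unipotent libraries that stood apart on the high side were O3 for Ppfibp2 (13.8 CPM) and Eng (27.1 CPM), O2 for Runx2 (218 CPM) and A2 for Igf2r (623 CPM). O2 stood apart for the contractile gene Lmod1 (39.7 CPM).

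Among bipotent libraries, OA2 had 11806 genes at 1 CPM. It was the lowest for Ldlrad3 (17.2 CPM) and Fabp4 (4.5 CPM) and stood apart for Igf2bp1 (36.6 CPM) and H19 (66.2 CPM). OA1 stood apart for Sox9 (11.7 CPM) and Ube2c (59.6 CPM), and OC3 for Fbf1 (72.7 CPM) and Oas3 (0.114 CPM). AC3 stood apart for Dlx5 (7.25 CPM), Atf3 (4.4 CPM), Ier3 (11.2 CPM) and Pde4d (46.3 CPM).

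The effects of osteogenic, adipogenic and chondrogenic potential differed by a test of the difference itself for Igdcc4 and Cldn15 (edgeR FDR 0.0440 each). Neither passed without OA2 and O1.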

How the results depend on the processing

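The count of 0 genes past the edgeR FDR for the trend was also obtained with a replicate block, with a GC offset, with limma on log2 CPM, in the single clones or the pools alone, without OC3 and AC3, without OA2 and O1, and on leaving out each library. It was 9 with DESeq2. Without the count filter it was 2, from Tex11 (1000 reads in OAC3, 2 in AC3, 0 elsewhere) and 2210011C24Rik. The step from 1 to 2 lineages had 0 genes in edgeR and 5 in DESeq2. Unequal lineage terms had 2 genes in the main setting, 554 with DESeq2, 0 with the replicate block, 18 with a GC offset, 7 with a GC offset and replicate block (added after seeing the data), 0 without OA2 and O1 (added likewise) and 0 to 3 on leaving out each library. On leaving out libraries, DESeq2 called 3 (without OAC2, OAC3 or A3) to 40 (without OAC1) genes for the trend. The slope of Spry1 was 0.51 over all libraries and -0.015 in the pools alone. The correlation of gene number with the number of lineages was -0.198, and -0.609 without OA2 and O1, the libraries with the fewest genes. Over 121 named genes and their settings the sign of the slope changed in 85 of 3267 cases, and 98 genes kept their sign throughout. Same-numbered libraries deviated from their group means with correlations of -0.58 to 0.76, 11 of 18 above 0.1, and 0.29 to 0.76 among the pools numbered 3, so the numbers as a whole were not taken to pair the libraries. The cause of these differences was not tested. Low counts limit Gna15, Hpgd and Kit, whose lowest libraries hold 5, 0 and 0 reads.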

Other observations

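The genes in this section were chosen after their values were seen and none passed the FDR. Zwint, a kinetochore protein, lay at 129 to 181 CPM in the 6 unipotent libraries, at 81.3 to 109 CPM in the 5 bipotent and at 91.2 to 104 CPM in the 3 tripotent ones. Unipotent libraries were all above the rest, and the step from 1 to 2 lineages was -0.68 (unadjusted p = 0.000245 by edgeR) with 0.06 at the next. Nav1, a microtubule-binding neuron navigator, had the reverse first step, 0.90 (unadjusted p = 0.00129), with 42 to 106 CPM in unipotent and 104 to 189 CPM in bipotent libraries. Itgal, the integrin chain of LFA-1, had 2.65, 2.51 and 4.73 CPM in OAC1, OAC2 and OAC3, 0.4 to 1.39 CPM in bipotent and 0.7 to 4.21 CPM in unipotent libraries. Tripotent libraries were thus above all bipotent ones for Itgal, and 2 of the 3 lay inside the unipotent range.

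Some low p-values rested on few libraries. Lars2, the mitochondrial leucyl-tRNA synthetase, had 4973 CPM in OAC2, 1434 CPM in OAC1 and 455 CPM in OAC3, so its step of 2.04 from 2 to 3 lineages came from OAC1 and OAC2, while OAC3 lay inside the bipotent range of 453 to 763 CPM. Unipotent libraries had 362 (A2) to 1824 CPM (O1) of Lars2, so O1 lay above OAC1. Sprr1a, a cornified envelope protein, had 49.4 CPM in A3 and at most 3.04 CPM in the others. Rspo3, an enhancer of Wnt signalling, had 9.66 and 11.3 CPM in the pools OC3 and AC3, 0.951 to 5.03 CPM in OA1 to OA3 and 0.573 to 0.829 CPM in tripotent libraries. Of the 57 genes with a positive step from 2 to 3 lineages at an unadjusted p under 0.05, 16 (28.1%) were unnamed or predicted genes, against 16.5% of tested genes.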
